A study of Arabidopsis thaliana with 54 samples.

Results

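Roots of the *sgn3* receptor mutant were treated with 100 nM CIF2 peptide for 30 min and compared with *sgn3* roots kept without peptide for the same time. These are 6 of the 54 libraries of the study, chosen by their titles, with 3 libraries per group and 1 from each of 3 batches. The mutant allele was sgn3-3 (SALK_043282), a T-DNA insertion line in the Col-0 background. The rest of the study holds wild type (WT) and the *cif1 cif2* double mutant of the ligand genes, at 30, 120 and 480 min with or without CIF2. All plants were Col-0 seedlings grown for 5 days on a mesh and moved onto fresh medium at the start of the treatment, so the roots without peptide were moved as well. The labels do not say how many roots went into a library or whether the batches came from separate sowings. P-values therefore measure spread between libraries, and that spread was estimated in 1 fit of all 54.

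CIF1 and CIF2 are small sulfated peptides that are made in the stele of the root. In the endodermis they bind SCHENGEN3 (SGN3, also named GASSHO1), a leucine-rich repeat receptor kinase, and act with the kinase SGN1 and with NADPH oxidases to close and survey the Casparian strip, the lignin ring that seals the wall between endodermal cells. The comparison in *sgn3* asks which early transcript changes after CIF2 remain in roots whose main known CIF receptor is mutated. GSO2, a close relative of SGN3, is not part of the genotype given for this line.

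The 6 *sgn3* libraries held between 26936506 and 33775594 reads on genes, and all 54 held between 21328819 and 38588050. *SGN3* itself (chromosome 4, 10883921 to 10888270 on TAIR10.1) had 34.2 CPM (counts scaled by library size) with CIF2 and 34.8 CPM without peptide in *sgn3* at 30 min. Over all times it lay between 19.9 and 46.5 CPM in the 18 *sgn3* libraries, against 105 to 290 CPM in the 18 WT libraries, with no overlap. Reads on the gene were thus fewer but not absent in the mutant. *GSO2* lay between 7.85 and 11.98 CPM in *sgn3*, against 8.34 to 25.9 CPM in WT. All 7 endodermis markers were detected in each *sgn3* library at 30 min, and their summed level was 617, 629 and 835 CPM with CIF2 and 634, 609 and 747 CPM without peptide. The summed level of 13 shoot photosynthesis genes was 137, 91.1 and 90.2 CPM with CIF2 and 122, 84.5 and 100 CPM without peptide, so the arms overlapped. The 6 xylem markers summed to 416, 389 and 445 CPM with CIF2 and 566, 384 and 403 CPM without peptide. For 3 phloem markers the sums were 79.9, 55.6 and 61.3 CPM, against 92.8, 62.2 and 53.0 CPM without peptide. The untreated library of batch 1 was the highest of the 6 in both lists. The arms also overlapped in the root hair and root cap lists. In root hair markers the treated library of batch 3 had the highest sum of all 54 (469 CPM).

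Of 19668 genes tested, 5 were called higher in *sgn3* with CIF2 at 30 min (0.0254% of the genes tested) and 0 were called lower, with edgeR's quasi-likelihood test, where a call needs a Benjamini-Hochberg adjusted P no larger than 0.05 and a change of 1 or more on the log2 scale. A sixth gene passed the adjusted P but not the fold change (6 genes, 0.0305%). By the unadjusted P of at most 0.05, 611 genes were higher (3.11%) and 790 were lower (4.02%), where 983 of both kinds together would be expected with no change. The called genes were *IGMT2*, *IGMT4*, *CYP81F2*, AT1G47130 and AT2G23270, and the sixth was *PUB23*. Members of one defence pathway are among them, since IGMT2 and IGMT4 are methyltransferases and CYP81F2 is the hydroxylating cytochrome P450 of indole glucosinolate modification. PUB23 is a U-box ubiquitin ligase that damps immune signalling. AT1G47130 and AT2G23270 carry no name in the reference used here.

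The number of calls depended on single libraries. Without the untreated library of batch 2 or of batch 3, 0 genes were called, and without the treated library of batch 2 only *IGMT2* was. Without the untreated library of batch 1 or the treated library of batch 3, 9 genes were called, and without the treated library of batch 1, 3 were. In the fit without the replicate block, which ignores that the libraries are paired by batch, *IGMT2* alone was called. Over the fit used here and all alternatives tried, 15 different genes were called at least once. All 15 were higher with CIF2, and all 15 belong to the 210 genes that CIF2 raised in both other genotypes, described further on.

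The stretches directly upstream of 4 of the called genes are shown because these genes moved together and because their promoters can be read for the W-box core, TTGAC, the letters to which WRKY transcription factors of the defence response bind. Each stretch is the 250 bases before the annotated gene start on the gene's own strand, from RefSeq's TAIR10.1, in lower case with TTGAC and its reverse GTCAA in capitals. IGMT2 reads from chr1:7396824-7397073 (minus strand), IGMT4 from chr1:7400737-7400986 (minus strand), CYP81F2 from chr5:23187590-23187839 (plus strand) and AT2G23270 from chr2:9902965-9903214 (plus strand).
IGMT2: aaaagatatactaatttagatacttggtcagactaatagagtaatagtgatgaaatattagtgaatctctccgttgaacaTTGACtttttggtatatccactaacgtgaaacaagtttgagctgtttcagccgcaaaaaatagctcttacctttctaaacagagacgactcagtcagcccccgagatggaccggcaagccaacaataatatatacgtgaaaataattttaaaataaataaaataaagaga
IGMT4: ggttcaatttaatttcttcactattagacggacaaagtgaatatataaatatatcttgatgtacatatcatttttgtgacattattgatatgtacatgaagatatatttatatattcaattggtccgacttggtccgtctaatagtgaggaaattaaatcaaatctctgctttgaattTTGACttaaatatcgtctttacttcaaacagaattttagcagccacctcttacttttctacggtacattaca
CYP81F2: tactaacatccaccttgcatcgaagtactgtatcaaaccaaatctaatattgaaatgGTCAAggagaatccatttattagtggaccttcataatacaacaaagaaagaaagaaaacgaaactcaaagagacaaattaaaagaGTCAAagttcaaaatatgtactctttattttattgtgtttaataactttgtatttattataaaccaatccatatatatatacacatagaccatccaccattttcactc
AT2G23270: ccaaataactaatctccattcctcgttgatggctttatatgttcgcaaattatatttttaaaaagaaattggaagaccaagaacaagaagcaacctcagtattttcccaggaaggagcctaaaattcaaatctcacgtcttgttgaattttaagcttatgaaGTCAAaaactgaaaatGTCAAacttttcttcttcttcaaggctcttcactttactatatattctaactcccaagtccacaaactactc
The core begins 170 bases before the gene start in *IGMT2* and 72 before it in *IGMT4*. It stands at 193 and 108 bases before the start in *CYP81F2*, and at 88 and 72 in AT2G23270. The model of AT1G47130 is marked as partial in the annotation, so its promoter is not printed. The 250 bases before its annotated start held no core. In windows of 250 bases before to 50 after the gene start, searched on both strands, 4 of the 5 called genes held TTGAC, against 51.5% of the windows of all genes tested. None of the 5 held the GCC box GCCGCC, the G-box CACGTG or the stress element CGCGTT, which 2.66%, 8.65% and 3.78% of all tested genes' windows held. A match of letters is a description of the window and not a binding site.

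*IGMT2* (AT1G21120, chromosome 1, 7395179 to 7396823, protein coding) had 86.0, 82.2 and 64.1 CPM in the 3 CIF2 libraries, in the order of batches 1 to 3, against 45.9, 33.2 and 25.7 CPM without peptide. Every CIF2 library lay above every library without peptide. The log2 fold change was 1.14 (SE 0.18, adjusted P = 0.00283 with edgeR). Without the untreated library of batch 2 the adjusted P was 0.0939, and without that of batch 3 it was 0.136 at a log2 fold change of 0.99. In WT the gene averaged 190 ± 33.7 CPM with CIF2 and 37.9 ± 5.66 CPM without peptide (SD, n = 3 each), a log2 fold change of 2.32. Without peptide the log2 difference of *sgn3* minus WT was -0.11 (adjusted P = 0.826 with edgeR). The difference of the log2 fold changes, *sgn3* minus WT, was -1.18 (95% interval -1.69 to -0.67, adjusted P = 0.00402 with edgeR).

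*IGMT4* (AT1G21130, chromosome 1, 7398814 to 7400736) had 84.2, 69.9 and 44.3 CPM with CIF2, against 38.0, 27.9 and 14.6 CPM without peptide. Batch 3 was the lowest in both arms, and the arms did not overlap. The log2 fold change was 1.32 (SE 0.25, adjusted P = 0.0152 with edgeR), beside 2.07 in WT. The difference from WT was -0.75 (95% interval -1.45 to -0.06) and did not pass the adjusted P (0.396 with edgeR), so the data do not separate the responses of this gene. Leaving out a single library, other than the treated one of batch 3 or the untreated one of batch 1, took the call away, with adjusted P between 0.104 (without the treated library of batch 2) and 0.463 (without the untreated library of batch 3). With limma-trend on all libraries the adjusted P was 0.0926.

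Both genes lie in a row of 4 methyltransferase genes on chromosome 1 that share stretches of sequence. Of the windows of 100 bases in the *IGMT2* transcript, 21.4% also occur in *IGMT3*, and of those in *IGMT4* 3.89% occur in *IGMT1* or *IGMT3*. Reads that aligned to more than 1 place were not counted for any gene, so these counts can miss reads from shared windows. The effect on the values of the single genes was not tested. *IGMT3* (AT1G21110) had 373, 385 and 263 CPM with CIF2, against 268, 236 and 175 CPM without peptide, with a log2 fold change of 0.58 (adjusted P = 0.0663 with edgeR). For *IGMT1* the log2 fold change was 0.66 (SE 0.23), and for *IGMT5*, which lies apart from the row and shares no such window with it, it was -0.00 (SE 0.11).

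*CYP81F2* (AT5G57220, chromosome 5, 23187840 to 23189902) had 24.97, 25.7 and 7.03 CPM with CIF2, against 9.54, 7.71 and 2.37 CPM without peptide. The treated library of batch 3 lay below the libraries without peptide of batches 1 and 2, so the arms overlapped, while CIF2 was higher within each batch. The log2 fold change was 1.52 (SE 0.28, adjusted P = 0.0152 with edgeR). In WT it was 2.80, with 36.6 ± 9.52 CPM with CIF2 and 5.38 ± 1.87 CPM without peptide (SD, n = 3 each). The difference from WT was -1.29 (95% interval -2.11 to -0.46, adjusted P = 0.111 with edgeR), and that from *cif1 cif2* was -1.59 (adjusted P = 0.0116 with edgeR). As in *IGMT4*, the call in *sgn3* needed all libraries other than the treated one of batch 3 and the untreated one of batch 1. The adjusted P was 0.288 and 0.259 without the treated library of batch 1 or 2, and 0.224 and 0.443 without the untreated library of batch 2 or 3.

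AT1G47130 (chromosome 1, 17291755 to 17292755) had 2.72, 3.71 and 2.25 CPM with CIF2, from 79, 99 and 63 reads, against 1.16, 1.54 and 1.08 CPM without peptide, from 39, 44 and 30 reads. The arms did not overlap. The log2 fold change was 1.19 (SE 0.19, adjusted P = 0.00283 with edgeR), beside 3.39 in WT, where the gene averaged 16.1 ± 1.86 CPM with CIF2 and 1.54 ± 0.52 CPM without peptide (SD, n = 3 each). Here the shortfall against WT was the largest among the 5 called genes, at -2.19 (95% interval -2.73 to -1.66, adjusted P = 6.54e-07 with edgeR). In *sgn3* the adjusted P was 0.0922 without the treated library of batch 2, 0.0728 without the untreated library of batch 2 and 0.0859 without that of batch 3.

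AT2G23270 (chromosome 2, 9903215 to 9903845, protein coding) was the least abundant called gene. It had 0.894, 2.098 and 0.678 CPM with CIF2, from 26, 56 and 19 reads, against 0.327, 0.280 and 0.180 CPM without peptide, from 11, 8 and 5 reads. Batch 2 was the highest treated library by far, and the arms did not overlap. The log2 fold change was 2.13 (SE 0.40, adjusted P = 0.0152 with edgeR). It was 2.45 in WT and 1.64 in *cif1 cif2*, and the difference from WT was -0.32 with a 95% interval of -1.61 to 0.97. This interval holds 0 and is the widest of those of the 5 called genes. The call did not hold without the treated library of batch 2 (log2 fold change 1.77, adjusted P = 0.422), the untreated library of batch 2 (1.88, adjusted P = 0.389) or that of batch 3 (adjusted P = 0.215). Nor did it hold without the whole of batch 1, 2 or 3 (adjusted P = 0.115, 0.988 and 0.173). On all libraries the adjusted P was 0.258 with limma-trend, 0.257 with edgeR and no replicate block, and 0.0532 with DESeq2.

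*PUB23* (AT2G35930) had 141, 155 and 139 CPM with CIF2, against 110, 104 and 87.8 CPM without peptide, with no overlap. The log2 fold change was 0.52 (SE 0.10, adjusted P = 0.0152 with edgeR), beside 1.13 in WT. The difference from WT was -0.61 (adjusted P = 0.00805 with edgeR). An annotated gene on the other strand overlaps *PUB23*, and whether reads were counted by strand is not given in the sources used here.

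**Figure D1:**
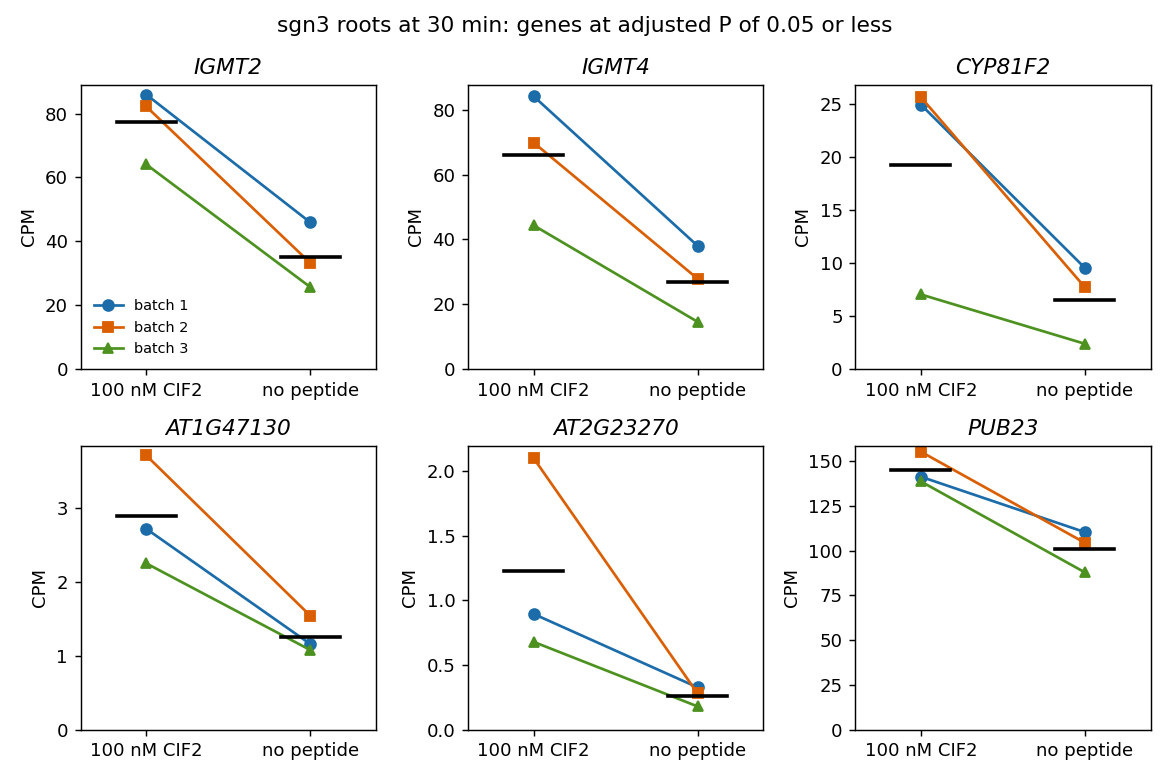
CPM of the 5 called genes and of *PUB23* in *sgn3* roots at 30 min, with CIF2 on the left and no peptide on the right of each panel, lines joining libraries of 1 batch and black bars marking the mean of 3 libraries. In every panel the treated library lies above the untreated library of its batch, and the *CYP81F2* panel shows batch 3 with 7.03 CPM in its treated library, below 9.54 and 7.71 CPM in untreated libraries of the other batches.

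The genes next in order of P moved mainly in the same direction. Of the 30 genes with the smallest P, 27 were higher with CIF2, all of them in 3 of 3 batches, and 3 were lower. Of these 30, 19 had no overlap between the arms. Over all genes, the arms did not overlap in 3.91% (higher) and 3.74% (lower). Since the 30 were ranked on this contrast, these counts are a description. In the contrasts of the other genotypes, which the ranking did not use but which come from the same fit, 19 of the 30 were called higher with CIF2 in WT and 23 in *cif1 cif2*, against 1.14% and 1.81% of all genes tested.

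Several of these genes belong to the early immune response. *PER4*, a cell wall peroxidase, had 235, 292 and 268 CPM with CIF2, against 164, 188 and 152 CPM without peptide (log2 fold change 0.65, adjusted P = 0.0785 with edgeR). *WRKY33*, a transcription factor of camalexin and immune genes, had 149, 144 and 114 CPM, against 113, 87.1 and 85.5 CPM without peptide (0.51, adjusted P = 0.0663). Neither pair of arms overlapped. *PROPEP2* encodes a precursor of the Pep danger peptides, and its log2 fold change was 0.90. Its relative *PROPEP3*, which was not among the 30, had 0.58. *PUB24*, a relative of *PUB23*, had 0.55. None of these passed the adjusted P.

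Others act in transport, hormone turnover and ubiquitin tagging. Members of the purine permease family were among the 30, *PUP7* with a log2 fold change of 1.07, *PUP8* with 1.57 and *PUP18* with 0.43. None of them passed the adjusted P. *PUP8* had 1.13, 2.17 and 0.79 CPM with CIF2, against 0.65, 0.46 and 0.22 CPM without peptide, so its value rests on few reads. *CYP707A3*, which hydroxylates abscisic acid, had 55.3, 73.9 and 53.2 CPM with CIF2, against 37.2, 53.3 and 26.7 CPM without peptide (0.67). *CNI1*, a RING ubiquitin ligase of the carbon and nitrogen response, had 46.4, 43.5 and 31.8 CPM, against 28.04, 26.2 and 17.4 CPM without peptide, with no overlap. Its log2 fold change was 0.77 in *sgn3* and 0.76 in WT, and the difference had a 95% interval of -0.48 to 0.49. The 3 lower genes were *ADT2*, an enzyme of phenylalanine synthesis (log2 fold change -0.22), *CPSF73-I*, a subunit of the complex that cleaves mRNA ends (-0.24), and AT1G64583 (-0.77). The adjusted P of each of these 3 was above 0.3.

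To see how far the early CIF2 response was kept, the genes called higher in both WT and *cif1 cif2* at 30 min were followed in *sgn3*. This list has 210 genes and was called from the WT and *cif1 cif2* contrasts, while the *sgn3* libraries, which have their own untreated arm, entered the same fit and so its estimates of spread and batch. All 5 called genes and *PUB23* belong to it. The median log2 fold change of the list was 0.31 in *sgn3*, beside 1.49 in WT and 1.75 in *cif1 cif2*, and -0.01 over all genes tested in *sgn3*. Of the 210 genes, 179 had a log2 fold change above 0 in *sgn3* (85.2%), against 47.3% of all genes. By the unadjusted P of at most 0.05, 82 were higher (39.1%, against 3.11% of all genes) and 1 was lower. The arms did not overlap for 42 of the 210 genes in the higher direction (against 3.91% of all genes) and for 1 in the lower. Without the 5 called genes, the median was 0.30 and 174 of 205 were above 0.

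The size of this shift differed between batches. The median log2 difference between the treated and the untreated library of a batch was 0.14 in batch 1, 0.52 in batch 2 and 0.36 in batch 3, with 131, 186 and 173 of the 210 genes above 0. Over all 19668 genes tested, 10013, 9738 and 9637 were above 0 in batches 1 to 3. In all 3 batches 105 of the 210 genes were higher with CIF2, against 3049 of the 19668. The untreated library of batch 1 stood apart from the other untreated libraries in stress genes. The summed level of 29 touch and early stress genes was 1081, 1067 and 1026 CPM with CIF2 and 1118, 801 and 867 CPM without peptide, so the untreated library of batch 1 was the highest of the 6. Without that library the median of the list, then 212 genes, was 0.53 in *sgn3*, and without the untreated library of batch 2 it was 0.21. The part of the stress genes in the smaller shift of batch 1 was not tested.

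**Figure D2:**
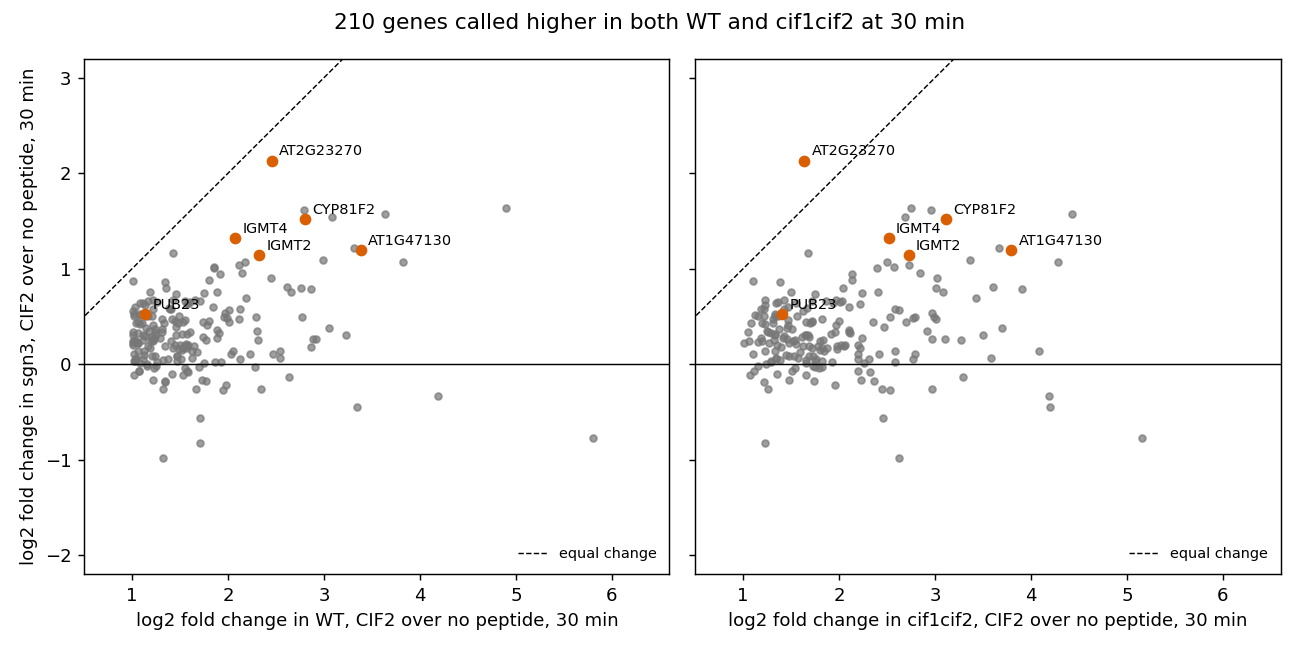
Log2 fold change in *sgn3* (vertical) against that in WT (left) and in *cif1 cif2* (right) for the 210 genes called higher in both, each point a gene, with the 6 genes that passed the adjusted P in *sgn3* in orange and a dashed line where the changes are equal. Of the 210 points 179 lie above 0 on the vertical axis, and all 210 lie below the dashed line in the WT panel.

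On the linear scale the change was a fraction of that in WT. For each gene the mean CPM with CIF2 minus the mean CPM without peptide was taken as the gain. The gain in *sgn3*, as a share of that in WT, had a median of 11.1% (quartiles 3.64% and 23.4%). Summed over the list, the gain was 20.1% of the WT gain. Over all genes tested the median share was 14.3% (quartiles -64.9% and 87.3%) and the summed share was 11.5%. The median alone therefore does not set the list apart from all genes. Levels without peptide had a median of 4.23 CPM in *sgn3* and 4.39 CPM in WT. Gene by gene, the log2 difference of untreated *sgn3* minus WT had a median of -0.15, against 0.01 over all genes tested. Of the 210 genes, 1 differed between the untreated genotypes at the adjusted P, against 45 of all 19668. The same untreated *sgn3* libraries enter the CIF2 comparison, and the part of this lower start in the shift was not tested. With CIF2 the medians were 5.06 CPM in *sgn3* and 14.04 CPM in WT.

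Genes that responded more in WT did not respond in proportion in *sgn3*. In the 70 genes with the weakest WT response (log2 fold changes of 1.01 to 1.25) the median in *sgn3* was 0.28, in the middle 70 it was 0.20 and in the strongest 70 (1.74 to 5.80) it was 0.48. Across the 210 genes, which are not independent replicates, Pearson's r between the log2 fold changes in *sgn3* and WT was 0.24 and Spearman's rho was 0.17. The highest log2 fold changes in *sgn3* were those of AT2G23270, AT5G52710 (1.63), AT5G56960 (1.61), *PUP8* and AT1G51913 (1.54), of which AT2G23270 passed the adjusted P. The lowest were those of AT5G35380 (-0.98), AT3G06962 (-0.83), *CYP82C3* (-0.78), *LOX3* (-0.56) and *WRKY71* (-0.45). *LOX3*, a lipoxygenase of jasmonate synthesis, had 4.61, 2.02 and 3.46 CPM with CIF2, against 12.3, 1.72 and 2.34 CPM without peptide, and the untreated library of batch 1 stood apart from the other 5. *CYP82C3* had at most 0.09 CPM in any *sgn3* library at 30 min and passed the filter of 1 CPM through other libraries, so its value in *sgn3* rests on almost no reads. The same holds for *WRKY71*, with at most 0.14 CPM, and AT5G35380, with at most 0.22 CPM.

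In the direct test of the difference, 371 genes responded differently to CIF2 in *sgn3* and WT at the adjusted P (1.89% of the genes tested), of which 292 had a lower and 79 a higher log2 fold change in *sgn3*. Against *cif1 cif2*, 766 genes differed (3.89%), 631 lower and 135 higher in *sgn3*. Without batch 1 or without batch 2, 114 genes differed from WT, and 273 and 383 differed from *cif1 cif2*. Without the untreated *sgn3* library of batch 1, 497 differed from *cif1 cif2*. Without the replicate block, 192 and 459 genes differed. All 210 listed genes had a lower log2 fold change in *sgn3* than in WT, which the choice of the list favours, and 119 of them passed the test. The 5 genes with the smallest P for the difference from WT were *NUDT7*, AT1G14040, AT5G35735, AT2G24600 and *PP2-A5*. *NUDT7*, a nudix hydrolase that restrains defence, had 82.8, 92.9 and 77.7 CPM with CIF2, against 93.3, 78.3 and 67.4 CPM without peptide in *sgn3*, a log2 fold change of 0.08 beside 1.24 in WT. AT1G14040 had 68.2, 57.8 and 55.5 CPM, against 65.2, 46.4 and 47.0 CPM without peptide (0.20 in *sgn3*, 1.59 in WT), and AT5G35735 had 57.8, 54.9 and 46.4 CPM, against 60.6, 44.4 and 40.1 CPM (0.14 in *sgn3*, 1.63 in WT). In these 3 genes the arms overlapped in *sgn3*, and the adjusted P of the difference was 9.9e-09 in each. *PP2-A5*, a lectin-like protein, had 7.12, 4.53 and 2.89 CPM, against 2.97, 2.21 and 1.65 CPM without peptide, and its log2 fold change was 1.07 in *sgn3* beside 3.82 in WT.

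Genes with the strongest evidence in WT varied in *sgn3*. Of the 10 listed genes with the smallest P in WT, AT1G47130 alone passed the adjusted P in *sgn3*. *CAD1* (AT5G44070), a phytochelatin synthase, had 155, 173 and 161 CPM with CIF2, against 154, 133 and 127 CPM without peptide, with no overlap and a log2 fold change of 0.24. AT3G15518 had 6.22, 7.46 and 6.71 CPM, against 5.23, 4.13 and 5.10 CPM, again with no overlap (0.49). AT5G39670 had 5.23, 5.92 and 3.00 CPM, against 6.77, 3.33 and 3.09 CPM, with overlap (0.06, beside 2.54 in WT).

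The promoters of the listed genes held the W-box core more often than those of other genes. TTGAC or its reverse occurred in the window of 165 of the 210 genes (78.6%, against 51.5% of all genes tested) and at least 2 times in 114 (54.3%, against 18.4%). The stress element CGCGTT occurred in 25 (11.9%, against 3.78%), the GCC box in 5 (2.38%, against 2.66%) and the G-box in 10 (4.76%, against 8.65%). In the stretches printed above, *IGMT2* and *IGMT4* hold 1 core each, and *CYP81F2* and AT2G23270 hold 2.

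Gene lists of known roles were then read in *sgn3*, where 3.11% of all genes tested were higher and 4.02% lower at the unadjusted P, and 47.3% had a log2 fold change above 0. Among 12 genes of the CIF receptor module, the ligands *CIF1* and *CIF2*, the sulfating enzyme *TPST*, the receptors *SGN3* and *GSO2*, the kinase *SGN1*, the co-receptor genes *SERK1*, *SERK2*, *BAK1* and *BKK1* and the oxidases *RBOHD* and *RBOHF*, 0 were higher and 1 was lower at the unadjusted P. That gene was *SERK1* (log2 fold change -0.17, SE 0.08). The median of the list was 0.01. *RBOHD*, which had 0.80 in WT, had 0.07 in *sgn3* (SE 0.10).

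Of 12 genes of the MAP kinase cascade, *MPK3* was higher at the unadjusted P (log2 fold change 0.26, SE 0.11, beside 0.66 in WT). *MPK6*, which acts beside MPK3, had -0.05. *MPK11* had 0.29 (SE 0.32) in *sgn3* beside 1.74 in WT. The median of the list was 0.06.

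Of 23 genes of indole glucosinolate and camalexin synthesis, 7 were higher (30.4%, against 3.11% of all genes) and 0 were lower (against 4.02%) at the unadjusted P, and 3 of the 7 were the called genes *IGMT2*, *IGMT4* and *CYP81F2*. The other 4 were *IGMT1*, *IGMT3*, the regulator *MYB51* (log2 fold change 0.63, SE 0.17, beside 1.58 in WT) and *PEN2* (0.37, SE 0.10), a myrosinase that cleaves indole glucosinolates. The genes of the core pathway lay near 0, with -0.10 for *CYP79B2*, -0.02 for *CYP79B3* and 0.01 for *CYP83B1*, as did the camalexin gene *PAD3* with -0.03. Other members of the modifying and regulating steps also lay near or below 0, with -0.15 for *CYP81F1*, -0.25 for *CYP81F3*, -0.10 for *CYP81F4*, -0.01 for *MYB34* and 0.01 for *MYB122*. The median of the list was 0.01.

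The early pattern-triggered genes had the most members past the unadjusted P, 11 of 28 higher (39.3%, against 3.11% of all genes) and 0 lower (against 4.02%), and 26 of 28 were above 0 (92.9%, against 47.3%). The median was 0.20 in *sgn3* and 0.98 in WT. The 11 were *WRKY11* (0.37), *WRKY22* (0.46), *WRKY29* (0.43), *WRKY33*, *PROPEP2*, *PROPEP3*, *PUB22* (0.38), *PUB23*, *PUB24*, *PER4* and the chitin receptor gene *CERK1* (0.19). The flagellin receptor gene *FLS2* had 0.02 (SE 0.21), beside 1.25 in WT, and *FRK1*, a marker of flagellin signalling, had 0.05 (SE 0.36). Of the 28 genes, 13 are also in the list of 210.

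The touch and early stress genes had a median of 0.26 in *sgn3* and 0.28 in WT. Of 30 genes 29 were tested, 9 were higher (31.0%, against 3.11% of all genes) and 1 was lower (against 4.02%) at the unadjusted P. Higher were *ZAT6* (0.42), *ZAT10* (0.49), *ERF1A* (0.30), *ERF5* (0.39), *ERF6* (0.41), *SZF1* (0.40), *SZF2* (0.19), *CAF1A* (0.48) and *CAF1B* (0.44), which encode zinc finger and ethylene response factors and deadenylases that rise soon after many stimuli. The cold factor *CBF3* was the lower one (-0.97, and -0.87 in WT). By batch, the median of the list was 0.02, 0.37 and 0.29 for batches 1 to 3, and 1 of the 29 genes differed from WT at the adjusted P (against 1.89% of all genes). Only 1 of them is in the list of 210.

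In the lists of the barrier itself the counts past the unadjusted P were near those of all genes (3.11% higher, 4.02% lower), so they say nothing particular of these genes. Of 14 Casparian strip genes 0 were higher and *SHR*, a regulator of endodermis identity, was lower (-0.21, SE 0.07). *CASP1* had 0.07, and *MYB15*, a regulator of lignin genes, had 0.50 (SE 0.36) beside 2.29 in WT. Of 15 phenylpropanoid and monolignol genes 0 passed the unadjusted P in either direction, and their median was -0.00. All 13 suberin genes were above 0, between 0.06 and 0.23, and 1 of them, *ASFT*, passed the unadjusted P (SE 0.11). In batch 1 the median of the suberin list was 0.23, against 0.07 in batch 2 and 0.05 in batch 3. Of 7 iron deficiency regulators and 11 clock genes 0 passed, with medians of 0.03 and 0.04.

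**Figure D3:**
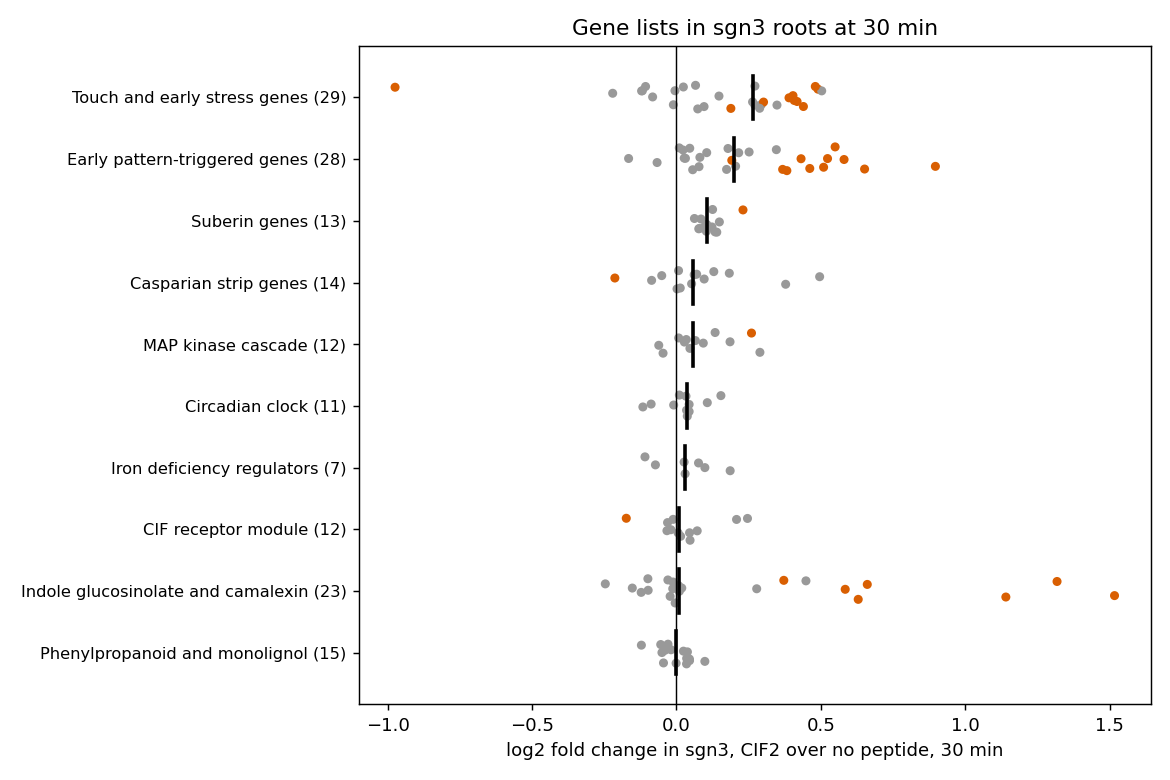
Log2 fold change in *sgn3* at 30 min, CIF2 over no peptide, for the members of 10 gene lists, with the number tested in parentheses, black bars at the medians and orange points at an unadjusted P of at most 0.05. The early pattern-triggered list has 11 orange points above 0, and the 3 points to the far right of the indole glucosinolate list are *IGMT2*, *IGMT4* and *CYP81F2* at 1.14, 1.32 and 1.52.

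At later times 0 genes were called in *sgn3* in either direction by edgeR, with 578 genes at the unadjusted P of at most 0.05 at 120 min and 1017 at 480 min, where 983 would be expected. The median of the 210 genes was 0.14 at 120 min (155 above 0, 9 higher at the unadjusted P) and 0.03 at 480 min (122 above 0, 3 higher). Of all 19668 genes tested, 10132 were above 0 at 120 min, and 275 were higher at the unadjusted P. At 480 min these counts over all genes were 10203 and 586. For *IGMT2* the value was 0.22 at 120 min and 0.05 at 480 min, that of *IGMT4* was 0.43 and 0.19, and that of *CYP81F2* was 0.42 and 0.29. AT2G23270 had 0.02 and 1.32, the second with an adjusted P of 0.969. In the direct test between times, 0 genes had a different CIF2 effect at 30 than at 120 min (743 at the unadjusted P) or at 480 min (1107), so the data do not separate the 30 min values from the later ones gene by gene.

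**Figure D4:**
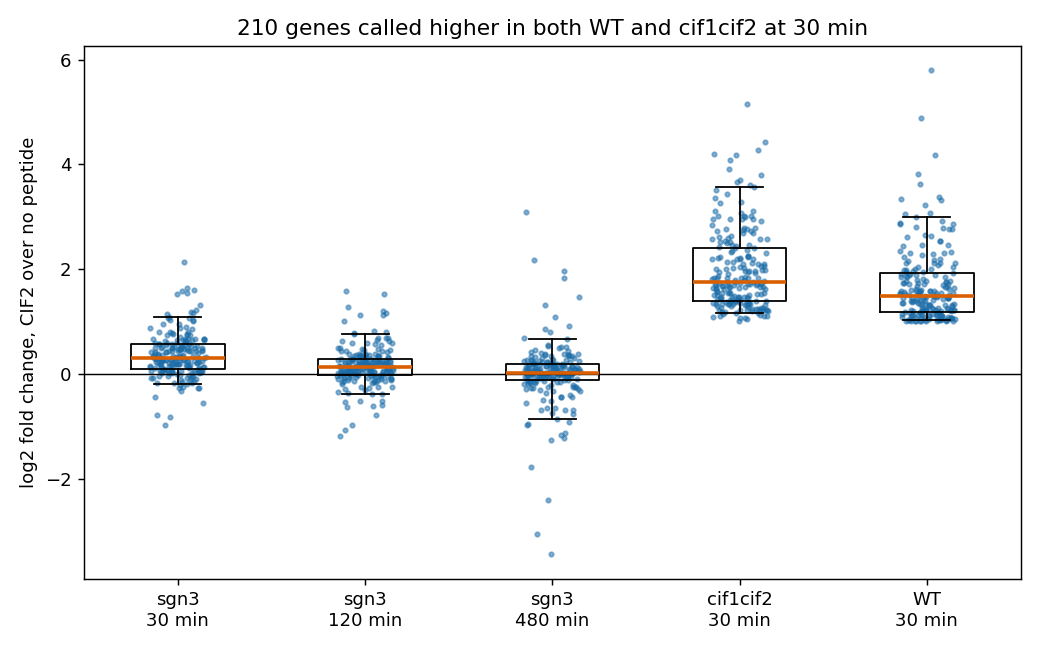
Log2 fold change, CIF2 over no peptide, of the 210 genes in *sgn3* at 30, 120 and 480 min and in *cif1 cif2* and WT at 30 min, with each point a gene, boxes from the first to the third quartile, orange lines at the medians and whiskers at the 5th and 95th percentiles. The medians are 0.31, 0.14 and 0.03 in *sgn3*, 1.75 in *cif1 cif2* and 1.49 in WT.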

How the data were processed

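Libraries were grouped by the genotype, peptide and time in their titles, and the batch number there was taken as the replicate number. Per the labels and methods, the authors made stranded mRNA libraries, trimmed the reads with Cutadapt 1.8, removed ribosomal and low-complexity reads, aligned to TAIR10 with STAR 2.5.3a and counted reads per gene with HTSeq 0.9.1 on the Ensembl 39 annotation. The deposited values are raw counts of 34262 genes. The 5 tally lines of each library (unassigned reads, between 4.72% and 5.15%) were left out.

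Genes that reached 1 CPM in any library were kept (19668). With edgeR 4.0.16 in R 4.3.3, TMM factors and a quasi-likelihood model with 18 groups and the batch as a block were fitted to all 54 libraries. P-values were adjusted over all genes tested. CPM are counts scaled by TMM-adjusted library sizes. The fit was also run on simulated counts, with large changes in well-covered genes and the same spread for every gene. That run does not cover the small shifts or the genes of few reads described here. Batch differences used log2 CPM with a prior count of 2. The numbers pair the samples, since the titles call them batches. After the mean of each group was taken off, *sgn3* libraries of the same number deviated together (correlations of 0.58, 0.38 and 0.57). Other pairs had at most 0.08, but taking off the mean itself pushes them down, so they are no separate evidence of pairing. Gene names and positions come from TAIR10.1 (32548 IDs matched), read for promoters with Python. The 3 *cif1 cif2* libraries titled CIF2 at 480 min have conflicting labels. They were taken by title and are in no contrast made here, but they entered the filter and the fit. Without them the same 5 genes were called, and 367 genes differed from WT and 761 from *cif1 cif2*.

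The gene lists and named genes were chosen with earlier results of these data known. Named are the genes called, those at the adjusted P, the next to 30 by P, the 10 smallest P in WT, the 5 smallest P for the difference from WT, list members, and the 5 highest and 5 lowest of the 210 genes. The alternatives were limma-trend (limma 3.58.1), DESeq2 1.42.0, its size factors, other filters, no replicate block, only the libraries compared, other cut-offs, other gene lists, and each batch or *sgn3* library left out. A gene near 1 CPM rests on few reads at these depths, so its fold change is imprecise.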

Additional observations from a re-analysis of the deposited data

Results flagged for a closer look

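The CIF2 effect at 30 min differed between *sgn3* and WT in 371 genes and between *sgn3* and *cif1 cif2* in 766 genes, each by the interaction term of the edgeR fit. Among the genes described one by one, the log2 difference of the effect, *sgn3* minus WT, passed the adjusted P for the called genes *IGMT2* (-1.18) and AT1G47130 (-2.19) and for *PUB23* (-0.61). It also passed for the genes ranked first on this difference, with -1.16 for *NUDT7*, -1.39 for AT1G14040, -1.49 for AT5G35735, -2.77 for AT2G24600 and -2.75 for *PP2-A5*. AT2G24600 had 7.67, 6.14 and 4.93 CPM with CIF2 and 10.3, 5.89 and 4.38 CPM without peptide in *sgn3*, and its response was -0.14 in *sgn3* and 2.63 in WT on the log2 scale.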

How the results depend on the processing

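The direction of the 5 called genes and of the median of the 210 genes was the same under every alternative run. The number of calls was 3 with limma-trend, 8 with no low-count filter, 11 with only the 6 libraries compared, 2 at an adjusted P of at most 0.01 and 1 without the replicate block. By the adjusted P alone, the count was 15 with DESeq2, 16 with no low-count filter, 85 with only the 6 libraries compared and 1 without the replicate block. Leaving out a batch or 1 *sgn3* library gave 0 to 9 genes called and 0 to 17 at the adjusted P alone, 114 to 363 genes differing from WT, 273 to 744 differing from *cif1 cif2*, and a median of 0.21 to 0.53 with 76.7% to 94.8% of the listed genes above 0. Among these leave-out fits, the highest median and the highest count at the adjusted P alone came without the untreated library of batch 1. Without the replicate block, 192 genes differed from WT and 459 from *cif1 cif2*. With 2 libraries left in an arm, the spread is shared with the other groups of the fit. The cause of these changes was not tested. The value of AT2G23270 rests on 5 to 56 reads in a library, so its depth limits its precision.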

Other observations

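Without peptide, *sgn3* roots at 30 min differed from WT in 45 genes at the adjusted P (14 higher and 31 lower in *sgn3*, edgeR) and from *cif1 cif2* roots in 9 (4 higher and 5 lower). *SGN3* itself was lower, with a log2 difference of -1.77 from WT (adjusted P = 1.14e-12) and -1.45 from *cif1 cif2*. The 7 iron deficiency regulators had a median log2 difference of -0.93 from WT, and 0 of them passed the adjusted P. *IRT1*, the main iron transporter of the root, averaged 94.2 ± 43.4 CPM in *sgn3* and 224 ± 107 CPM in WT without peptide (SD, n = 3 each), and *FRO2*, the ferric reductase, averaged 19.7 ± 8.01 CPM in *sgn3* and 58.7 ± 35.7 CPM in WT. The libraries of both genotypes overlapped in both genes. Of 13 suberin genes, whose median was -0.31, 0 passed.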
